A study of Mus musculus with 2 samples.

Results

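The 10 genes described here carry or limit the signal from immune receptors to NF-kB, and were read on 2 arrays of mouse B cells, 1 titled as lacking the microRNA miR-155. They were taken by name as a signalling group: the TAK1 kinase gene Map3k7 and its adaptor gene Tab2, the IKK complex genes Chuk, Ikbkb and Ikbkg, the IKK-related kinase genes Ikbke and Tbk1, the ubiquitin ligase gene Peli1, and the deubiquitinase genes Cyld and Tnfaip3. Every probe set (a group of short probes summarised as 1 value) whose platform annotation named only 1 of these genes was used. Of the 10 genes 9 had such a probe set, out of 18193 genes in all, with 33 probe sets between them out of 45101. For Chuk, which encodes IKK alpha, no value was analysed here. A gene counted as expressed where its mean over both arrays was at or above a log2 intensity of 6.71, the median over the array without its control probe sets. All 9 genes and 30 of their probe sets passed.

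The series holds 1 array titled as miR-155 knockout (genotype mir155 KO) and 1 titled as wild-type (mir155 WT), both from cultured and activated B cells of C57 mice from Jackson Laboratory. Male mice were used per the labels, and the cells of both arrays received cycloheximide, an inhibitor of translation, at 100 ug/ml for 8 min before harvest. The growth notes instead describe haematopoietic progenitors kept for 6 days with G-CSF and SCF, and neither the stimulus used for activation nor the allele is stated there. The source names give each array the opposite genotype, so each array is called here by its title. Differences are log2 values, KO-titled minus WT-titled, and they change sign if the source names are the correct ones. Mir155hg, the transcript from which miR-155 is cut, went against the titles: it read 10.88 on the KO-titled and 6.63 on the WT-titled array, and where its only probe set lies relative to the deletion was not determined. With 1 array per label there is no spread between animals or cultures and no test, and each difference is described by its size.

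In this pathway, receptors for microbial products, CD40 and the B cell receptor assemble chains of ubiquitin. TAB2 binds these chains and brings TAK1 to them, and TAK1 then phosphorylates the IKK complex, in which the kinases IKK alpha and IKK beta are held together by NEMO. IKK marks the inhibitors of NF-kB for destruction, while the related kinases IKK epsilon and TBK1 act mainly on interferon regulatory factors. A20 and CYLD edit or remove the chains and so end the signal, and Pellino-1 builds some of them. Among these genes Tab2, Ikbke and Peli1 have been reported in the literature as targets of miR-155.

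The mature microRNA is shown because the seed, bases 2 to 8 and here in capitals, is the part that pairs with target transcripts. It is encoded at chr16:84714143-84714165 on the plus strand (RefSeq, GRCm38.p6). Target sites in the members' transcripts were not searched here.
mmu-miR-155-5p: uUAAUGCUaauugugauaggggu

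With each gene read by its brightest probe set, Ikbke and Tab2 had the largest differences of the group, both lower on the KO-titled array, with linear differences of -25.2% and -22.9%. With plain _at sets only, Peli1 (-0.47) was lower than both. No member reached 0.5 in either direction. Of the 9 expressed genes 6 were lower (7 under quantile or loess scaling) and 3 higher, with a median difference of -0.061 against 0.026 over all 10717 expressed genes. Over all expressed genes 42.1% were lower and 56.9% higher, and with a loess curve taken off the differences 52.6% were lower. A difference of 0.5 or more (1.41-fold) was seen in 1.31% of expressed genes downward and in 0.681% upward, and a difference of 2-fold or more in 0.159%, so counts of 0 among 9 members are near the background.

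A technical yardstick came from 4906 genes with several expressed probe sets: the differences of the brightest pair lay 0.084 apart in the median gene, and 0.31 apart at percentile 95. This size was taken as a second mark after the values were known. Both sets of a pair were read on the same 2 arrays, so the yardstick holds no spread between arrays, cultures or animals. It describes a gap between 2 sets and serves here only as a mark of size for 1 difference. Among expressed genes 4.27% were lower and 4.26% higher by 0.31 or more, and among the 9 members 2 were lower (Ikbke and Tab2) and 0 higher. Of the members' 30 expressed probe sets 17 were lower, against 40.2% of all 19171 expressed singly named probe sets. By 0.31 or more 5 of the 30 were lower, against 3.87% of all, and these were both sets of Tab2, the single set of Ikbke and 2 sets of Peli1. Probe sets of 1 gene are not independent of each other, so these 5 stand for 3 genes.

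**Figure D1:**
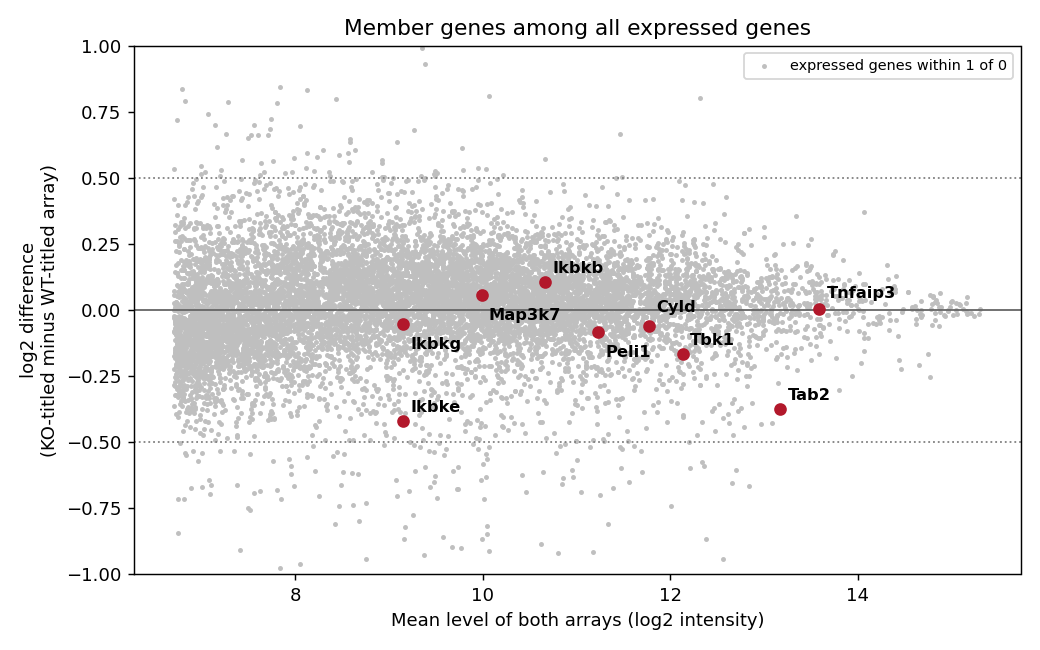
Difference (vertical axis, log2, KO-titled minus WT-titled) against mean level of both arrays (horizontal axis, log2 intensity) for expressed genes, 1 point per gene, with the 9 members in red; dotted lines stand at 0.5 and -0.5 and the 17 genes that differed by 2-fold or more lie outside the plot. Ikbke (-0.42) and Tab2 (-0.38) lie low, and the other 7 members lie between -0.16 and 0.11.

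Tab2, which encodes the adaptor that senses ubiquitin chains for TAK1, was read by 2 probe sets. Its brighter set had a level of 12.98 on the KO-titled array and 13.36 on the WT-titled array. The other had levels of 12.63 and 13.02. Both were lower on the KO-titled array, with differences of -0.38 and -0.39 that lay 0.017 apart. Both were designed from the same source sequence and are not independent. Of all expressed genes 293 were as low as Tab2 or lower. Among the 1029 expressed genes with a mean level of 12 or more the difference had an SD of 0.161 and its 2.5th percentile was -0.377. The brighter set of Tab2 (-0.375) thus lay just inside the central 95% for its level, and the other set (-0.392) just outside.

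Map3k7, the TAK1 kinase that TAB2 serves, did not share the difference of its adaptor gene. Its brightest probe set had levels of 10.02 (KO-titled) and 9.96 (WT-titled), a difference of 0.058. The other 3 expressed sets differed by 0.004, -0.084 and 0.16. The 2 sets below the level for expression differed by -0.007 and 0.015. All 6 lay within the yardstick of 0.31 on either side of 0, and their directions were mixed. Whether the differences of Tab2 and Map3k7 are themselves distinct cannot be tested with 1 array per label.

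The measured IKK subunits were close on both arrays. Ikbkb, the kinase IKK beta that drives the canonical pathway, had levels of 10.71 on the KO-titled array and 10.61 on the WT-titled array in its brightest set, a difference of 0.11. Its 5 expressed sets ran from -0.15 to 0.11, with 2 lower and 3 higher. Ikbkg, the scaffold NEMO, had levels of 9.12 and 9.18 in its brightest set, a difference of -0.053. Its 6 expressed sets ran from -0.053 to 0.16, with 2 lower and 4 higher. Neither gene therefore had a direction that all its probe sets shared. With the mean of all probe sets the sign of both turned, to a value that rounds to 0 for Ikbkb and to 0.060 for Ikbkg.

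Ikbke, the inducible kinase IKK epsilon, had 1 probe set, which read 8.94 on the KO-titled and 9.36 on the WT-titled array. The difference of -0.42 corresponds to a 1.34-fold lower signal, and 224 of the 10717 expressed genes were as low or lower. Among the 3759 expressed genes with mean levels from 8 to below 10 the 2.5th percentile of the difference was -0.392, so Ikbke lay just outside the central 95% for its level. No other probe set was there to check it.

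Tbk1, the constitutive relative of IKK epsilon, was also lower, by less. Its s-type probe set had levels of 12.05 and 12.21 on the KO-titled and WT-titled arrays, and its plain set had levels of 10.88 and 11.07. The differences of -0.16 and -0.19 agreed within 0.023, but both sets came from the same source sequence. Of all expressed genes 1351 were as low or lower, so Tbk1 lay well inside the central 95%, which ran from -0.388 to 0.370.

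Peli1, the gene of the ligase Pellino-1, gave values that depended on the probe set. The brightest, the a-type set 1417372_a_at, had levels of 11.19 on the KO-titled array and 11.27 on the WT-titled array and differed by -0.083. The plain set 1417371_at from the same source sequence had levels of 10.34 and 10.80 and differed by -0.47, the largest difference among the group's expressed probe sets. The set 1431061_s_at had levels of 9.02 and 9.34 and differed by -0.32. Set 1431060_at, near the level for expression, had levels of 7.15 and 7.11 and differed by 0.041. Set 1459398_at was below that level, at 5.10 and 4.64. Thus 3 of 4 expressed sets were lower on the KO-titled array, and the gap of 0.383 between the brightest pair was matched or exceeded in 2.63% of the 4906 genes with such a pair. By the rule that takes the brightest set Peli1 differed by -0.083, and with plain sets only by -0.47.

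**Figure D2:**
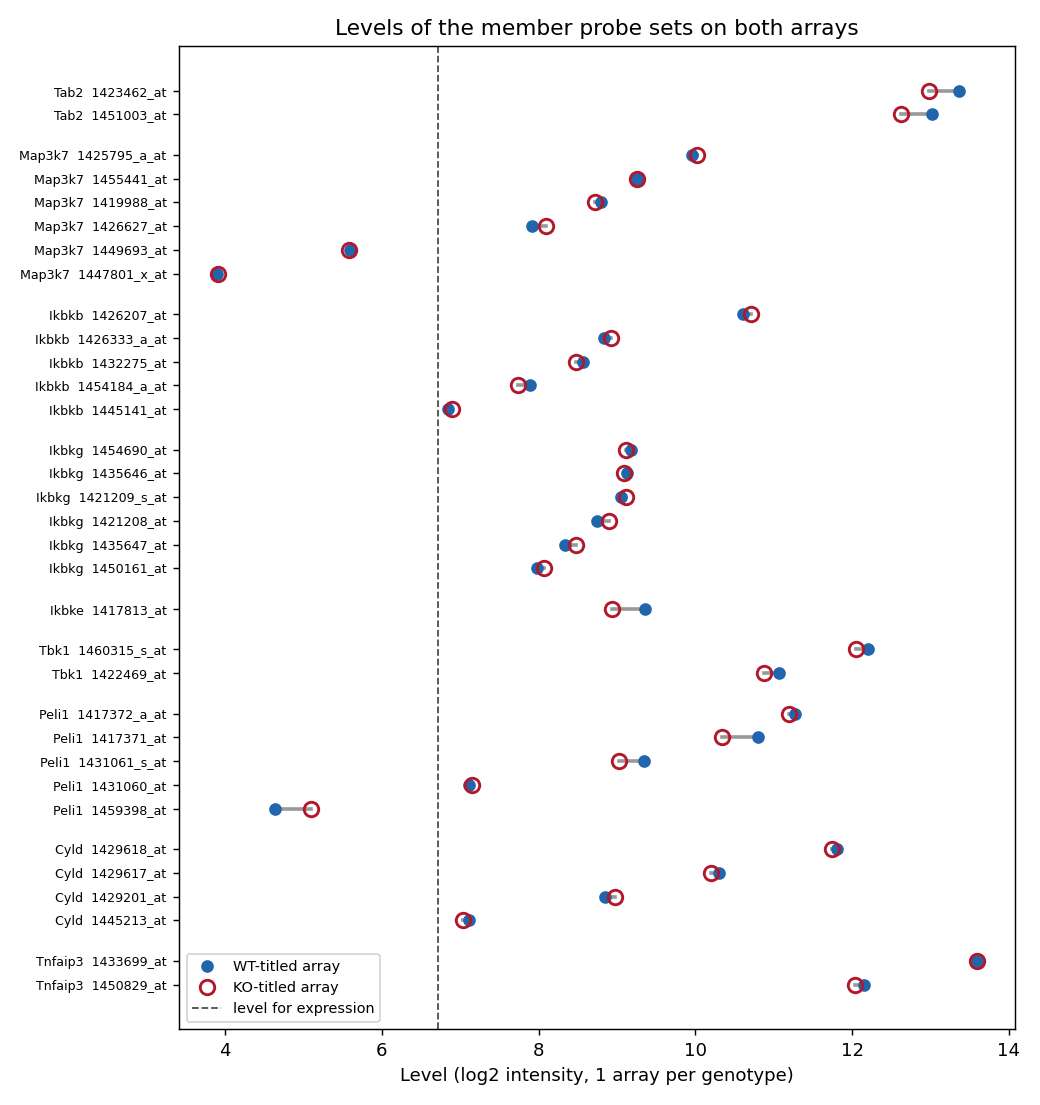
Log2 intensity (horizontal axis) of each of the 33 member probe sets on the KO-titled array (open red circles) and the WT-titled array (filled blue circles), with the level for expression of 6.71 as a dashed line. Both sets of Tab2, the set of Ikbke and 2 sets of Peli1 have the open circle 0.31 or more to the left, a dim set of Peli1 below the dashed line has it to the right (5.10 against 4.64), and levels of different probe sets are not comparable with each other.

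The deubiquitinase genes were almost level. Tnfaip3, which encodes A20 and is itself an NF-kB target, had equal levels of 13.59 on both arrays in its brightest set, with a difference of 0.003. Its second set, from another source sequence, had levels of 12.04 and 12.15 on the KO-titled and WT-titled arrays. That set differed by -0.11, and the sign of the gene turned under 3 of 6 alternative settings. Cyld, a deubiquitinase that also acts as a tumour suppressor, had levels of 11.75 and 11.81 in its brightest set, a difference of -0.061. Its 4 expressed sets ran from -0.10 to 0.12, with 3 lower and 1 higher. Both genes thus differed by less than the yardstick in every probe set.

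**Figure D3:**
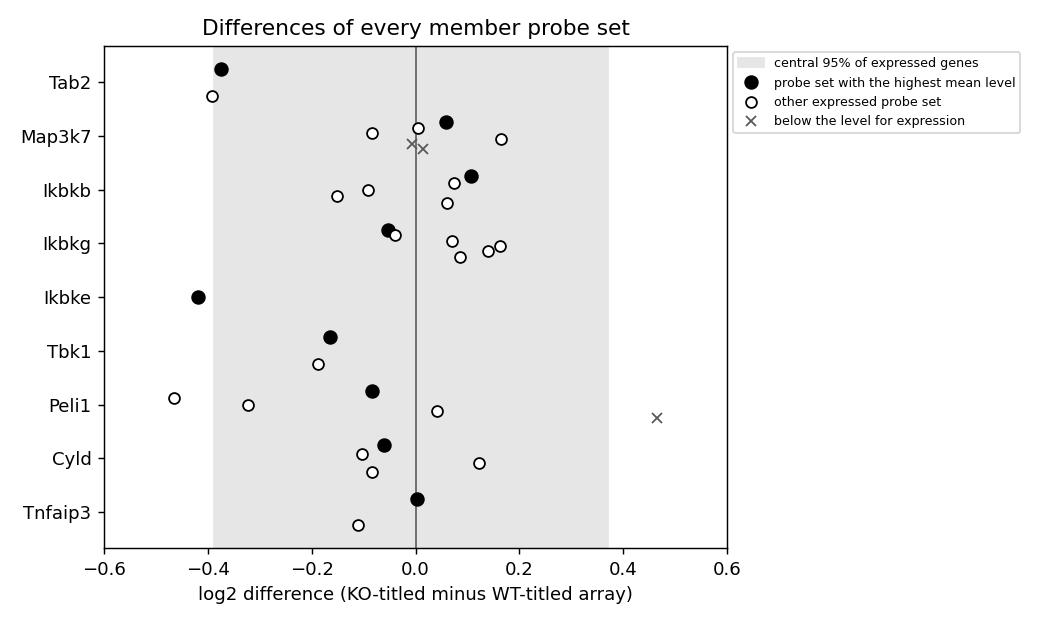
Difference (horizontal axis, log2, KO-titled minus WT-titled) of every member probe set by gene: filled circles are the sets with the highest mean level, open circles other expressed sets, and crosses sets below the level for expression, with the central 95% of expressed genes shaded. The sets of Tab2 and of Tbk1 lie close together, whereas the expressed sets of Peli1 spread from -0.47 to 0.04.

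The promoters of Ikbke and Tab2 are shown because these genes differed most by their brightest probe sets. That of Tnfaip3 is shown as the member whose response to NF-kB is textbook knowledge. The brightest set of Tnfaip3 had equal levels on both arrays, and its other set differed by -0.11. Each window runs from 250 bases before to 50 bases after an annotated start (RefSeq, GRCm38.p6), is written in the direction of transcription, and has capitals where a kB pattern, the binding form of NF-kB, was found on either strand. The patterns were GGGANTTCC, of the shorter spacing, and GGGANTTTC, the start of the longer one, which share their opening letters, and they were chosen with these windows in view. Tab2 and Tnfaip3 have 2 annotated windows each, and the one farther upstream is printed. The Ikbke window is chr1:131279514-131279813 on the minus strand, that of Tab2 is chr10:7956074-7956373 on the minus strand, and that of Tnfaip3 is chr10:19015361-19015660 on the minus strand.
Ikbke: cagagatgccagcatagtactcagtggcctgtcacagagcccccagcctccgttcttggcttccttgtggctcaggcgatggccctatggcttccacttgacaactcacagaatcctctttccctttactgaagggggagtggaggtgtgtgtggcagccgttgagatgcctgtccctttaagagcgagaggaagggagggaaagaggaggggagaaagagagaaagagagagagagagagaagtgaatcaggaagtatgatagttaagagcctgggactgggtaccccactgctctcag
Tab2: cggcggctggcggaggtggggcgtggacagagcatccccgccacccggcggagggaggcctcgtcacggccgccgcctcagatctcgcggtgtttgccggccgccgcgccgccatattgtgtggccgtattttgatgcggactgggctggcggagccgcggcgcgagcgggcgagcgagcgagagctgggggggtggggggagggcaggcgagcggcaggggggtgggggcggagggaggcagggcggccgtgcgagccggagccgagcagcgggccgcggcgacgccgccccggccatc
Tnfaip3: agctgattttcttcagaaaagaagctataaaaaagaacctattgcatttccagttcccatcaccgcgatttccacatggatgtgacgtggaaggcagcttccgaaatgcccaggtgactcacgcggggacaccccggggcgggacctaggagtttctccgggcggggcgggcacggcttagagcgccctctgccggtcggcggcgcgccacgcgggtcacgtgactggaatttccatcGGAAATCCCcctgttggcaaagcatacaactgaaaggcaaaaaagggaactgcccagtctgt

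The windows of Ikbke and Tab2 held no match, and the printed window of Tnfaip3 held 1 (GGAAATCCC, starting at -12 from the start site). GGGANTTCC was in 1.68% and GGGANTTTC in 1.11% of all 32851 promoter windows of this length, and either in 2.75%. Of the 14 windows of the 9 members that had one (Ikbkb having none annotated here), 3 held a match. These were that of Tnfaip3 and those of Map3k7 (GAAATTCCC, at -91) and Cyld (GAAAGTCCC, at -154). The shares above are per window, and the patterns were chosen with these windows in view, so nothing is read from this count. The brightest probe sets of Tnfaip3, Map3k7 and Cyld differed by 0.003, 0.058 and -0.061. Of the measured members with a window but no match, Ikbkg (-0.053) and Peli1 (-0.083) were about as level in their brightest sets. The expressed sets of Peli1, however, ran from -0.47 to 0.041. Ikbkb (0.107) had no window to search. Tbk1 (-0.165), Tab2 and Ikbke were lower. Whether a match goes with the difference was not tested. Base composition varied among the printed windows, with 78.0% G and C for Tab2, 54.0% for Ikbke and 56.7% for Tnfaip3, against a median of 52.7% over all windows. A match describes letters only, and its absence says nothing of the factor.

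The rest of the pathway was examined in 7 lists of 57 genes, of which 49 were measured and 48 expressed. Of these 26 were lower and 22 higher on the KO-titled array, with a median of -0.016, and 0 reached 0.5 in either direction. Among all expressed genes 42.1% were lower and the median was 0.026. After the loess subtraction 32 of the 48 were lower and 16 higher, against 52.6% of all lower. The 8 genes of these lists without a singly named probe set, such as Irak4 and Traf3, were not analysed here. Malt1, the paracaspase that joins the B cell receptor to TRAF6 and IKK, was the only one of the 48 past 0.31, a mark that 4.27% of all expressed genes passed downward and 4.26% upward. Its level was 10.49 on the KO-titled array and 10.83 on the WT-titled array, a difference of -0.34, and its 3 expressed probe sets ran from -0.43 to -0.34. Bcl10, its partner, differed by -0.045.

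Among the other TAK1 subunits and upstream kinases 4 of 6 were lower (5 of 6 after the loess subtraction), with a median of -0.11. For this and the following lists the background is the same 42.1% lower and 56.9% higher (52.6% lower after loess), and with 2 to 11 genes a list nothing particular is read from the counts. Tab3, a close relative of Tab2, was the lowest at -0.275, with levels of 9.43 (KO-titled) and 9.71 (WT-titled) in a single probe set. Map3k1 was the highest at 0.18. Among receptor-proximal adaptors and kinases 5 of 6 were lower, by little, from Myd88 (-0.17), the common adaptor of Toll-like receptors, to Irak1 (0.009). After the loess subtraction 6 of 6 were lower, and with plain sets only 3 of 5. Of the ubiquitin ligases and their E2 enzymes 6 of 11 were lower, with Traf2 (-0.16) and Birc2 (0.26), the ligase cIAP1, at the ends.

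Adaptors and substrates of TBK1 and IKK epsilon were split, with 3 of 6 lower (4 of 6 after the loess subtraction). Tbkbp1, a TBK1 adaptor, was the lowest at -0.18 and Mavs, the mitochondrial adaptor of RNA sensing, the highest at 0.24. Of the partners of A20 and CYLD and other deubiquitinases 8 of 11 were higher, against 56.9% of all expressed genes, with a median of 0.032. After the loess subtraction 5 of 11 were higher and the median was -0.007. They ran from Tnip1 (-0.16), an A20-binding protein, to Zranb1 (0.19), a deubiquitinase also named TRABID. In the MAP kinase arm below TAK1 3 of 6 were lower, from Map2k3 (-0.15) to Map2k6 (0.225), and the median of 0.020 turned to -0.021 with quantile normalization.

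**Figure D4:**
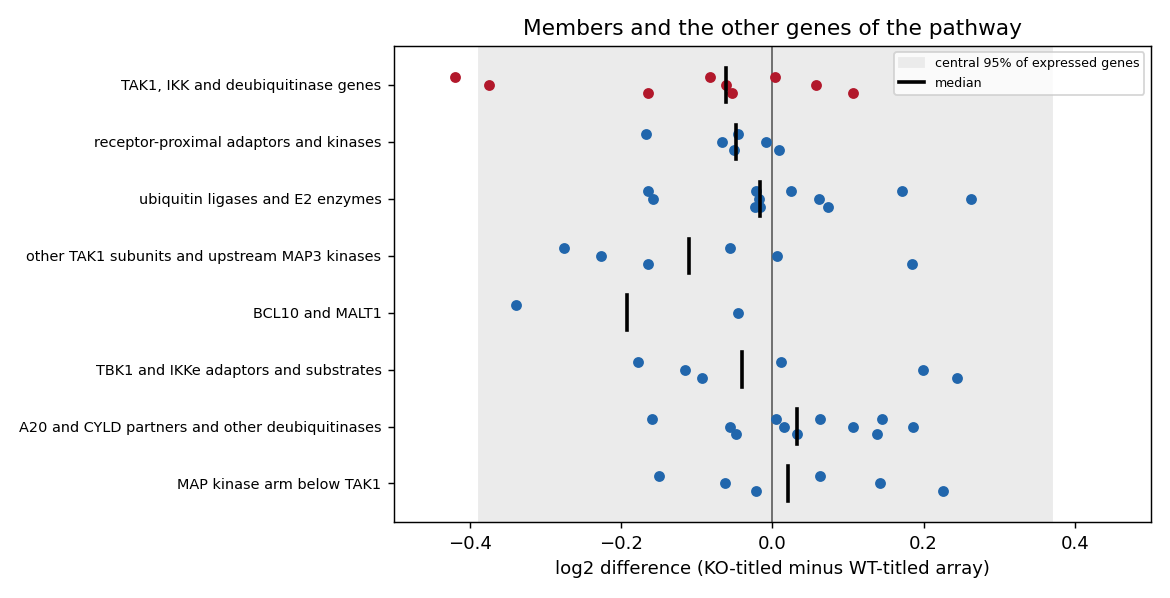
Difference (horizontal axis, log2, KO-titled minus WT-titled) of the expressed genes of the group (red) and of 7 pathway lists (blue), 1 point per gene, with each list's median as a black bar and the central 95% of all expressed genes shaded. Ikbke (-0.42) lies outside the shaded range, and Malt1 (-0.34) is the lowest point of the pathway lists.

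Markers of the cells in the culture were read beside these values, each by its brightest probe set. Of those expressed, 2 lay 0.31 or more from 0 (Cd14 and Zbtb46, both lower). Over all expressed genes 4.27% were lower and 4.26% higher by that much, and with few markers nothing is read from this count. Among less bright expressed sets, Csf1r reached -0.54 and Ms4a1 0.33. Of 6 B cell markers 5 were measured, all expressed and all higher on the KO-titled array, by 0.17 to 0.27 in their brightest sets. Over all their expressed sets the range was 0.073 (Pax5) to 0.33 (Ms4a1), and 56.9% of all expressed genes were higher. The summed linear intensity of these markers was 29795 on the KO-titled array and 25608 on the WT-titled array. Of 6 macrophage and monocyte markers 5 were expressed, 4 of them lower, and Itgam was below the level for expression. The summed intensities were 690 and 781. The expressed ones were dim, from 6.69 (Fcgr1, KO-titled array, below the level for expression there) to 7.65 (Csf1r, WT-titled array). Each sum in this paragraph runs over all measured markers of its list, those below the level for expression included. Of 4 measured dendritic cell markers only Zbtb46 was expressed (-0.44). With levels of 9.75 and 10.19 it made up most of the sums of 1030 and 1348. For neutrophils and their precursors 1 of 6 was expressed (Camp, 6.80 and 6.88). The sums of 522 and 519 came mostly from the markers below the level for expression. For T cells 4 of 5 were expressed, 1 lower and 3 higher, with sums of 772 and 730. A change in the share of a cell type and a change in RNA per cell cannot be told apart on these arrays. The part of these cells in the differences of Ikbke and Tab2 was not tested.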

How the data were processed

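Total RNA was labelled with the Affymetrix 3′ IVT Express kit per the labels' protocols. The authors deposited log2 intensities for 45101 probe sets, the unit being read from the values (3.09 to 15.41). How they were summarised and normalized is not given in the sources used here. Sorted by value, the 2 arrays lay within 0.063 of each other at every rank, so the deposited distributions were nearly alike, and a difference in total RNA per cell may not be visible.

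Platform annotation, matched by Entrez number to RefSeq genes of GRCm38.p6 for 34741 of 34945 singly named probe sets, gave the gene names, and 0 symbols changed. Each gene took its probe set with the highest mean level. Array number limits the precision, and no p-value was computed. Members and lists were chosen with earlier results of these data known. All members were named, with Mir155hg and the highest and lowest expressed gene of each pathway list plus any that differed by 0.5 or more. The 6 alternatives covered the choice of probe set, the scaling and the filter on level. The counting was tested on simulated data with 2-fold shifts, larger than any member's difference, so this checks the code and not how well smaller differences are found. Promoter and microRNA sequences came from RefSeq tables. The work used matplotlib 3.10.9, statsmodels 0.14.6, NumPy 2.4.6 and pandas 2.3.3 under Python 3.11.15.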

Additional observations from a re-analysis of the deposited data

How the results depend on the processing

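The settings were averaging over each gene's sets, plain _at sets only, quantile normalization, subtraction of a loess curve (span 0.3), no filter on level, and a filter at the 75th percentile. Under these 6 the median of the members ran from -0.108 to -0.054, with 6 or 7 of 9 lower, and 0 members or pathway genes reached 0.5. The members lower by 0.31 or more numbered 2 under 5 settings and 3, with Peli1, under plain sets. Tab3 passed that mark under quantile and loess scaling, making 2 lower pathway genes, while 1 pathway gene was higher by that much under averaging (Mavs) and 1 under plain sets (Rnf11, near the level for expression). Ikbke (-0.47 to -0.42), Tab2 (-0.40 to -0.38), Tbk1, Peli1, Cyld and Map3k7 kept their sign under all 6. Peli1 ran from -0.47 to -0.073. Tnfaip3 turned under 3, and Ikbkb and Ikbkg under 1. The planned pseudocounts did not apply to log2 values. No array could be left out. No paired analysis was possible because each label has 1 array. Signal near background limits the dimmest sets of Map3k7 and Peli1.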

Other observations

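Some regulators of the same pathway, chosen here after their values were seen, had probe sets that lay apart. Traf1, an NF-kB-induced adaptor, differed by 0.025 in its brightest set and by -0.28 in the other. Rnf11, a partner of A20, ran from 0.015 to 0.41 over 3 expressed sets, and Tax1bp1, which links A20 to its substrates, from -0.091 to 0.32 over 3. Mavs was higher in both of its sets, by 0.244 and by 0.499, just short of the mark of 0.5. Outside that pattern, Otulin, the deubiquitinase of linear chains, differed by 0.145 and Rbck1, a subunit of the ligase that makes them, by 0.17, each in a single set.

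Over all genes with several expressed probe sets, the brightest pair disagreed by a median of 0.074 where both came from the same source sequence (1457 genes) and by 0.089 where they did not (3449 genes). The 95th percentiles were 0.275 and 0.332. The Peli1 pair, at 0.383, came from the same source sequence and lay above both.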
